A study of Mus musculus with 12 samples.

Results

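The 37 genes described here are interferon-stimulated genes, whose transcription rises when a cell senses an interferon. They were taken by symbol from a list of well-known members of this class and not by a cut on their values, although earlier results of these data were known. All 37 were among the 55487 genes of the count table. Whole-lung RNA-Seq was available for 12 C57BL/6J mice in which the entire miR-30a gene had been removed from the germ line with CRISPR/Cas9 (miR-30a-/-). Pups breathed 95% oxygen (hyperoxia) from postnatal day (PND) 1 to PND 5 or stayed in room air, and the lungs were taken on PND 21. Each of the 4 groups, room air females (RA_F), hyperoxia-exposed females (O2_F), room air males (RA_M) and hyperoxia-exposed males (O2_M), had 3 lungs. The room air controls carried the deletion too and wild-type lungs were not analysed here, so every value below is from lungs without miR-30a. The study's methods state that the right ventricle was perfused with PBS before the lungs were frozen and that pups of several litters were mixed before the exposure. The labels do not say which lungs share a litter, so that p-values measure only the spread between these lungs.

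Interferons are secreted proteins that warn tissues of infection. Type I interferons (interferon alpha and beta) and type III interferons signal through receptors that activate a complex containing STAT2 and IRF9, which binds a DNA element called the interferon-stimulated response element (ISRE). Type II interferon (interferon gamma), made mainly by T cells and NK cells, acts through the gamma-activated sequence (GAS). The induced genes block viral replication, sense foreign nucleic acids, attack vacuoles that hold microbes and amplify or brake the response itself. Lungs keep a low tone of these genes without infection, in epithelium, endothelium and immune cells.

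The response elements can be seen in the promoters. RefSeq promoter windows (GRCm38.p6) of 300 bases, from 250 bases before to 50 after the annotated start, were matched by symbol for 27 of the 37 genes. The core letters of the ISRE, GAAA, any 2 bases and GAAA again on either strand, stood in a window of 18 of these 27 genes (66.7%), and in a window of 3.99% of all 27025 mouse genes with windows of the same length. GAS letters, TTCNNNGAA, which read the same pattern on both strands, stood in 6 of the 27 (22.2%) and in 9.55% of all those genes. Windows are shown for 5 genes on which the results below turn, Rsad2 as the member that fell after hyperoxia, Isg15 and Ifit1 as members whose windows hold several ISRE cores, and Gbp2 and Igtp as the members that stood highest in 1 room air lung. Capitals mark the ISRE and GAS letters, each sequence runs 5′ to 3′ on the gene's own strand, and a match is a description of letters, not of binding.
Rsad2 (chr12:26456403-26456702, minus strand): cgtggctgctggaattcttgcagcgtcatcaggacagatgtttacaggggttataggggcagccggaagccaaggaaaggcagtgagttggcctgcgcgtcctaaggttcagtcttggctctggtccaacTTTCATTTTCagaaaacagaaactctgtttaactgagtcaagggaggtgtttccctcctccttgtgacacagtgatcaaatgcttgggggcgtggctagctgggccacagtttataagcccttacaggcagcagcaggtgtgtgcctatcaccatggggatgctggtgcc
Isg15 (chr4:156200769-156201068, minus strand): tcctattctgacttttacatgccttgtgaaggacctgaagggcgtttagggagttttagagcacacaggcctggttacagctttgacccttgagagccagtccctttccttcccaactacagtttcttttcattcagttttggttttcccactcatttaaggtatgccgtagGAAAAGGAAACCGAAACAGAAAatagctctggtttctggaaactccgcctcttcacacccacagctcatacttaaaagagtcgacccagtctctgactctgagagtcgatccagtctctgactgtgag
Ifit1 (chr19:34640639-34640938, plus strand): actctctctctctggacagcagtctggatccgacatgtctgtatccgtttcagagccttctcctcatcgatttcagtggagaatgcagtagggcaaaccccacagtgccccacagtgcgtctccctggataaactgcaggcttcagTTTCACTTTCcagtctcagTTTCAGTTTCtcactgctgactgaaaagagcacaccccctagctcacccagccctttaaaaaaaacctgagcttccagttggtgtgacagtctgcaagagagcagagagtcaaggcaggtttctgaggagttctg
Gbp2 (chr3:142620413-142620712, plus strand): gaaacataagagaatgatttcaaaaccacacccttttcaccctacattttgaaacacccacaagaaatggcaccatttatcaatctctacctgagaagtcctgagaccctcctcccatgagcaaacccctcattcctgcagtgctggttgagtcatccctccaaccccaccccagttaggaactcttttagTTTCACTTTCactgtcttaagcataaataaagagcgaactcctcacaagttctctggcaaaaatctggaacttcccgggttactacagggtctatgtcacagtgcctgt
Igtp (chr11:58199306-58199605, plus strand): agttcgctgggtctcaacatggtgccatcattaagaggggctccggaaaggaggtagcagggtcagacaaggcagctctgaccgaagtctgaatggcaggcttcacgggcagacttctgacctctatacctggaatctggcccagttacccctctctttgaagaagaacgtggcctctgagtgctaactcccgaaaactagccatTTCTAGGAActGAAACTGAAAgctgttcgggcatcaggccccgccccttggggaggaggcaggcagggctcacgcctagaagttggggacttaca
The Isg15 window held 3 ISRE cores that overlap each other in 1 run, and the Ifit1 window held 2 that lie apart. In Rsad2 the single core begins 120 bases before the start, and in Gbp2 it begins 59 bases before it. Igtp had 1 ISRE core and, just upstream of it, the GAS letters TTCTAGGAA, without overlap. Ifit3 and Ifit3b, near-identical neighbours in the Ifit cluster, carried the same pair of core sequences, as did Oas1a and Oas1g in theirs.

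**Figure D1:**
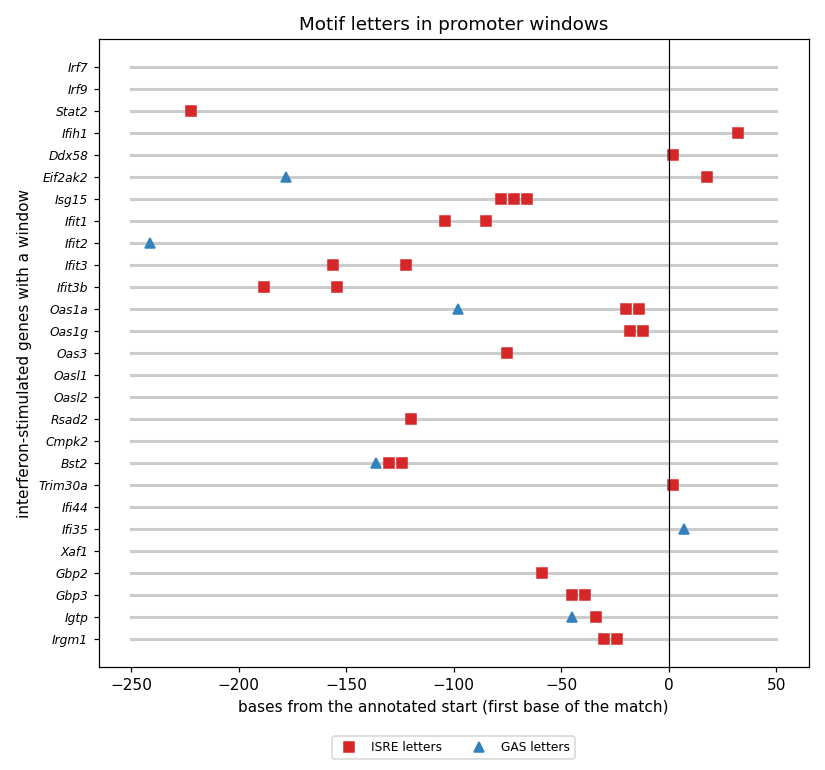
Positions of ISRE letters (red squares) and GAS letters (blue triangles) in the promoter windows of the 27 matched genes, in bases from the annotated start (0). The matches of 18 genes with ISRE letters lie on both sides of the start, and each grey line is the searched window of 1 gene.

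Library depth ran from 8763033 to 16741694 counts. Mir30a itself had 0 counts in all 12 lungs, where 3 counts would be 0.191 to 0.327 CPM (counts relative to an upper-quartile effective library size), so the deletion could not be read from these libraries, and these limits cover counting error only. Expression of Xist and Ddx3y matched the labelled sex in 12 of 12 lungs. Reads on olfactory and vomeronasal receptor genes, which a lung should hardly express, made up 0.435% to 1.00% of counts and give the background density used below. RA_M1 stood apart in 5 skeletal muscle genes, which summed to 1650 CPM against 92.7 to 159 CPM in the other 11 lungs. Markers of lung epithelium, led by Scgb1a1 and Sftpc, were high in every lung, with summed levels of 7461 to 20568 CPM.

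The members were expressed at low to moderate levels. Per kilobase of exon (RPKM, mean of 12 lungs) the highest were Gbp2 at 21.9, Bst2 at 14.9, Ifi27l2a at 14.4, Rsad2 at 13.3, Ifi27 at 12.5, Igtp at 12.4, Ifit3 at 12.02 and Parp14 at 11.4, and the lowest were Ifi44 at 2.80 and Oas1g at 2.89. The places of Gbp2 and Igtp in this order depend on the lung RA_F6, described below: over the other 11 lungs Gbp2 averaged 11.4, the fifth highest, and Igtp 6.28, the 22nd, and Ifi27l2a and Bst2 led with 13.8 and 13.7. The background density would account for 5.39% of the reads of Gbp2 (10.3% without RA_F6) and for 43.0% of those of Ifi44 and 42.5% of those of Oas1g. Low members therefore carry a larger share of reads that may not be their own transcripts, and a fold change of these genes is drawn towards that of the background.

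The question of the exposure comparison was how the lungs at PND 21 differed after neonatal hyperoxia. Averaged over the sexes, 35 of the 37 members stood lower after hyperoxia, with a median log2 fold change of -0.38, and Oas1g and Oasl1 stood higher. Among all 45828 genes tested, 44% stood lower and the median was 0.031. At an unadjusted p under 0.05 in edgeR's quasi-likelihood test, 21 members (56.8%) stood lower and 0 higher, against 2.52% of all genes lower and 2.67% higher. A gene is called below when its fold change exceeds 1.5 and its p, adjusted over all genes by Benjamini-Hochberg, is under 0.05. By this rule only Rsad2 of the members was called, lower, as were 0.0393% of all genes in that direction, and 0.00218% of all genes were called higher. In a bulk lung, fewer cells of a type and less RNA per cell cannot be told apart. Because the members rise and fall together across lungs, these counts are not 37 separate observations. Monocyte markers moved in the same direction, with 3 of 3 lower at an unadjusted p under 0.05 (median log2 fold change -0.29) and a summed level of 63.6 to 89.5 CPM in room air and 50.1 to 69.5 CPM after hyperoxia. B cell markers also stood lower, 3 of 3 and 2 at that p (median -0.28), with sums of 76.4 to 138.2 CPM in room air and 72.6 to 98.1 CPM after hyperoxia. The mean sum in room air divided by that after hyperoxia was 1.24 for monocytes and 1.23 for B cells. Other immune lists were nearer to level or went the other way: neutrophils 1.08, plasmacytoid dendritic cells 0.984, macrophages 0.939, T cells 0.936 and NK cells 0.919. No marker of these lists was at 0 counts in any lung, and their part in the members' values was not tested.

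Rsad2 (ENSMUSG00000020641, chromosome 12 from 26442746 to 26456452) encodes viperin, an enzyme that makes a chain-terminating nucleotide and hinders viral polymerases. In room air it stood at 113, 70.8 and 86.9 CPM in females 2, 5 and 6 and at 58.5, 77.9 and 76.6 CPM in males 1, 4 and 5. After hyperoxia it stood at 18.4, 52.3 and 29.6 CPM in females 2, 4 and 5 and at 27.03, 30.9 and 47.9 CPM in males 1, 2 and 3. The lowest room air lung was thus above the highest hyperoxia-exposed lung, and Rsad2 was the only member without overlap between the 6 lungs of each exposure, where 0.12% of all genes were lower without overlap. The means were 80.6 ± 18.4 CPM in room air and 34.3 ± 13.03 CPM after hyperoxia (SD, n = 6 each), and Rsad2 fell by 1.22 ± 0.19 on the log2 scale (SE, adjusted p = 0.00774). Its log2 fold change was -1.44 ± 0.27 in females (adjusted p = 0.0881) and -1.01 ± 0.27 in males (adjusted p = 0.9998), so in this fit the fall passed the test over both sexes and in neither sex alone. The female value passed with DESeq2 (adjusted p = 9.69e-05), RUVr with 1 factor (0.0480), no filter (0.0409) and the replicate block in females (log2 fold change -1.93, adjusted p = 0.0485), and without RA_M1 (0.0485) or O2_F4 (log2 fold change -1.92, adjusted p = 0.0136). The call was lost without RA_F6 (log2 fold change -1.24, adjusted p = 0.0676), without RA_F2 (-1.12, adjusted p = 0.0532), without O2_M1 (-1.14, adjusted p = 0.0684), without O2_M2 (-1.18, adjusted p = 0.737) and without O2_F5 (-1.18, adjusted p = 0.0603). With all 12 lungs the call was also lost under RUVr with 1 factor (adjusted p = 0.0617) or 2 (0.0878), a minimum of 10 counts in every lung (0.0598), subtraction of background (0.474) and a term for the receptor share (0.283), and DESeq2, which called 0.0741% of all genes lower, kept it (-1.27, adjusted p = 4.55e-06). The log2 fold change stayed between -1.46 and -1.08 when any 1 lung was left out. Over the other alternatives it ran from -1.47 to -0.055, the latter with the red cell covariate described below.

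The fall of Rsad2 moved with red cell genes. The 5 red cell markers, the globin genes Hbb-bs, Hbb-bt, Hba-a1 and Hba-a2 and the haem synthesis gene Alas2, summed to 5118 to 7881 CPM in room air lungs and to 1247 to 4650 CPM after hyperoxia, also without overlap. All 5 were lower after hyperoxia, and Hbb-bt (log2 fold change -1.28), Hba-a2 (-1.24) and Alas2 (-1.11) were called, with adjusted p of 0.0205, 0.0233 and 0.0129, while Hba-a1 (-1.46) and Hbb-bs (-1.17) were not. Per 1000 CPM of these markers, Rsad2 was at 12.7 ± 1.49 CPM in room air and 13.6 ± 2.71 CPM after hyperoxia (SD, n = 6 each), with ranges of 10.4 to 14.3 and 10.3 to 17.9, and this ratio did not separate the exposures (exact permutation test, two-sided, p = 0.587). With the log2 sum of the markers as a covariate, chosen after these values were seen, the log2 fold change of Rsad2 was -0.055 ± 0.277 (adjusted p = 0.998) and the median of the 37 members was -0.42, with 5 of them lower at an unadjusted p under 0.05 (13.5%, all genes 0.853%) in place of 21 (56.8%, all genes 2.52%) and 0 of all genes called. Because the marker sum itself separated the exposures without overlap, this fit can hardly tell the covariate from the exposure. Standard errors grew with it, for Bst2 from 0.144 to 0.310 and for Stat2 from 0.144 to 0.305. With such errors, fewer small p-values do not mean smaller fold changes. The part of red cells or their precursors in the values of Rsad2 or of the other members was not tested beyond these values.

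Cmpk2, which supplies nucleotide precursors and lies next to Rsad2 on chromosome 12 (26469204 to 26479837, opposite strand), did not share this separation. It stood at 25.6, 24.3 and 42.98 CPM in room air females against 19.2, 24.3 and 17.5 CPM after hyperoxia, and at 20.4, 25.4 and 21.5 CPM in room air males against 23.2, 16.2 and 17.8 CPM. The male groups overlapped, the female groups only just did not, and the log2 fold change over both sexes was -0.42 (adjusted p = 0.809). Without RA_F6 it was -0.26. The difference between the fold changes of the neighbours was not tested.

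**Figure D2:**
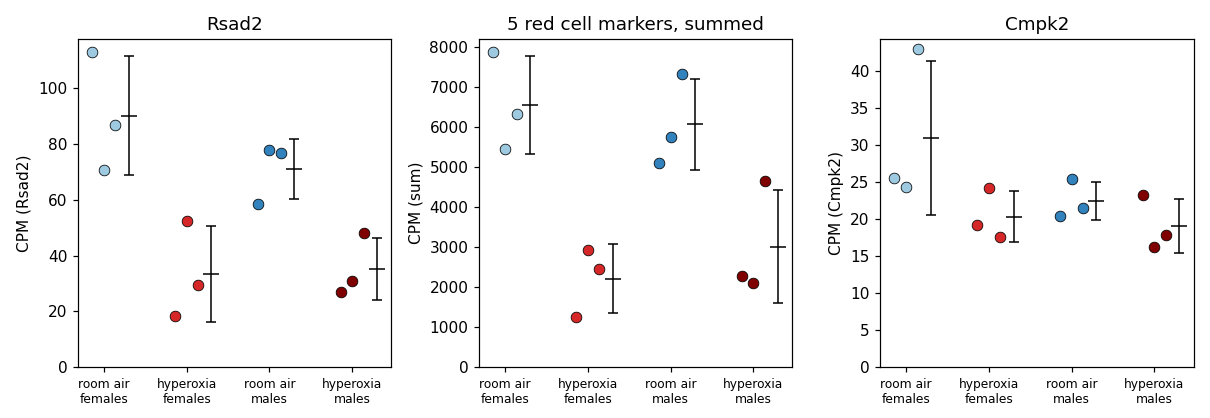
CPM of Rsad2, of the 5 red cell markers summed and of Cmpk2 in each lung (points, 3 per group) with the group mean and SD beside them. Rsad2 and the red cell sum both show every hyperoxia-exposed lung below every room air lung, whereas the exposures overlap for Cmpk2.

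The factors that carry the interferon signal, Stat2, Irf9 and Irf7, stood lower after hyperoxia mainly in females. In the order of lungs given above, which is kept throughout, Stat2 was at 74.3, 70.7 and 123 CPM in room air females and 56.2, 51.4 and 50.8 CPM after hyperoxia. In males Stat2 was at 47.6, 65.1 and 53.2 against 59.3, 48.5 and 49.7 CPM. The female groups did not overlap, with RA_F6 far above the other lungs, and the male groups did. Irf9 stood at 59.2, 57.9 and 68.3 against 42.5, 41.8 and 34.3 CPM in females and 40.3, 55.6 and 41.996 against 51.3, 32.9 and 38.9 CPM in males. Irf7, the factor that amplifies type I interferon production, stood at 25.7, 23.3 and 37.8 against 17.8, 18.7 and 15.4 CPM in females and 14.2, 22.3 and 17.4 against 20.2, 14.7 and 16.7 CPM in males. Both had female groups without overlap and male groups that ran through each other, and 0 of the 3 factors were called, with a median log2 fold change of -0.74 in females and -0.07 in males.

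Nucleic acid sensors gave a like picture with smaller differences. Ifih1, which encodes the double-stranded RNA sensor MDA5, was at 55.6, 54.8 and 63.3 CPM in room air females and 43.4, 42.6 and 38.3 CPM after hyperoxia, against 36.6, 56.3 and 34.2 and 50.8, 35.2 and 37.8 CPM in males. Ddx58, which encodes RIG-I, was at 90.3, 87.7 and 86.4 against 70.1, 58.8 and 57.9 CPM in females and 58.5, 83.5 and 61.03 against 81.2, 51.05 and 67.9 CPM in males. For the RNA-activated kinase PKR, Eif2ak2 was at 51.1, 44.2 and 51.98 against 40.3, 37.3 and 32.2 CPM in females and 40.5, 49.04 and 37.4 against 44.5, 30.8 and 37.4 CPM in males. Over the 5 sensors the median log2 fold change in females was -0.48 with RA_F6 and -0.39 without it. In Ifih1, Ddx58 and Eif2ak2, RA_F2 and RA_F5 were as high as, or close to, RA_F6. Without that lung the female log2 fold changes of these 3 genes were -0.42, -0.52 and -0.39, against -0.48, -0.50 and -0.42 with it. Their female difference thus did not rest on RA_F6. Zbp1, a sensor of Z-form nucleic acid, differed from them, with 17.3, 15.3 and 47.95 CPM in room air females against 14.4, 14.7 and 12.9 CPM after hyperoxia and 14.9, 17.2 and 14.2 against 13.6, 17.3 and 12.7 CPM in males, where RA_F6 alone was high. Dhx58, which encodes the RIG-I-like regulator LGP2, ranged from 15.5 to 21.8 CPM in room air and 13.7 to 22.1 CPM after hyperoxia, and 0 of the 5 sensors were called.

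Isg15, a ubiquitin-like protein that is joined to newly made proteins, had the third lowest unadjusted p of the members over both sexes, after Rsad2 and Bst2. It ranged from 3.98 to 11.1 CPM (median 6.38) in room air and 2.49 to 5.42 CPM (median 4.01) after hyperoxia, with a log2 fold change of -0.79 over both sexes (adjusted p = 0.439) and -0.62 ± 0.30 in males. Without RA_M4 the male value was -0.27. Usp18, the protease that removes ISG15 and also restrains the type I receptor, was at 20.4, 20.5 and 27.4 CPM in room air females and 17.5, 15.5 and 16.3 CPM after hyperoxia, and at 18.8, 21.1 and 18.6 against 20.2, 18.6 and 16.8 CPM in males. The female groups were apart and the male groups overlapped.

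The IFIT genes, which encode proteins that hold back foreign RNA from translation, lie in a cluster on chromosome 19 between 34550694 and 34650009. Ifit3 was at 25.5, 19.9 and 34.1 CPM in room air females and 21.5, 18.8 and 15.6 CPM after hyperoxia, and at 18.4, 23.3 and 17.3 against 24.2, 13.4 and 19.5 CPM in males, with overlap in both sexes. Ifit1 ranged from 12.3 to 33.8 CPM in room air and 9.80 to 19.6 CPM after hyperoxia, Ifit3b from 7.64 to 13.98 and 6.35 to 11.4 CPM. Ifit2 was nearly level, with a log2 fold change of -0.08 ± 0.12 over both sexes and 0.08 ± 0.17 in males. Its value over both sexes ran from -0.19 to -0.0037 with 1 lung left out and was -0.37 with the red cell sum as a covariate. How reads that match both Ifit3 and Ifit3b were counted is not given in the sources used here, so their separate levels are uncertain.

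Among the OAS genes, which encode synthetases that activate RNase L and their relatives without that activity, the directions were mixed. Oasl2 was at 60.3, 53.1 and 112 CPM in room air females and 44.1, 44.6 and 38.1 CPM after hyperoxia, and at 47.3, 70.5 and 39.4 against 50.2, 33.4 and 38.5 CPM in males. Oas2 was at 22.2, 20.5 and 29.8 against 18.02, 20.2 and 17.01 CPM in females and 16.8, 22.9 and 19.4 against 14.03, 18.2 and 19.8 CPM in males. These were the OAS members whose female groups did not overlap, and for Oas2 lung 5 of room air and lung 4 of hyperoxia were nearly equal. Oas3 ranged from 28.9 to 46.5 CPM in room air and 22.8 to 31.2 CPM after hyperoxia, and Oas1a from 5.86 to 9.16 and 4.58 to 7.40 CPM. Oas1g stood higher after hyperoxia, with a log2 fold change of 0.22 ± 0.16, and Oasl1, which represses translation of Irf7, had 0.03 ± 0.14, neither of which passed the test. Oas1g shares sequence with Oas1a in the same cluster on chromosome 5, and the 2 are uncertain against each other.

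Mx1 and Mx2 encode dynamin-like antiviral GTPases, and C57BL/6J mice are known to carry a defective Mx1. Mx1 was at 13.2, 11.6 and 18.5 CPM in room air females and 13.2, 11.9 and 13.1 CPM after hyperoxia, and at 16.3, 15.3 and 12.8 against 10.7, 12.7 and 12.8 CPM in males. Here the males and not the females were without overlap, with males 5 of room air and 3 of hyperoxia nearly equal. Mx2 ranged from 12.3 to 17.9 CPM in room air and 11.2 to 17.7 CPM after hyperoxia, and neither gene was called.

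Of the other antiviral effectors, Bst2 (tetherin, which holds budding virus on the cell surface) was at 16.9, 13.3 and 24.96 CPM in room air females and 11.2, 8.58 and 10.2 CPM after hyperoxia, and at 11.6, 16.1 and 14.8 against 14.3, 8.71 and 10.6 CPM in males. Its log2 fold change over both sexes was -0.60 (adjusted p = 0.255), with the female groups apart and the male groups overlapping. Parp14, an ADP-ribosyltransferase, was at 133, 122 and 236 against 98.9, 84.7 and 76.6 CPM in females and 71.1, 117 and 86.4 against 103, 64.5 and 83.1 CPM in males. Trim30a, a TRIM protein of the innate immune response, was at 45.1, 36.5 and 51.6 against 30.96, 28.9 and 23.8 CPM in females and 26.3, 37.4 and 30.6 against 33.97, 20.6 and 26.5 CPM in males. As with Bst2, all 3 room air females lay above all 3 hyperoxia-exposed females for both genes, and the males overlapped.

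Ifi27l2a and Ifi27, small membrane proteins of the ISG12 family that are neighbours on chromosome 12, overlapped in both sexes. Ifi27l2a was at 8.53, 7.63 and 9.95 against 4.72, 8.68 and 4.30 CPM in females and 6.06, 9.83 and 5.62 against 6.20, 4.35 and 4.14 CPM in males (log2 fold change in males -0.54 ± 0.26, -0.24 without RA_M4). Ifi27 was at 25.8, 24.6 and 16.4 against 19.9, 14.004 and 12.98 CPM in females and 14.2, 23.4 and 20.96 against 20.5, 12.95 and 15.2 CPM in males. Ifi27 was unlike most members in that RA_F6 was the lowest of the 3 room air females. Rtp4, a receptor chaperone, was at 23.9, 18.2 and 41.2 against 15.7, 14.8 and 13.7 CPM in females and 14.4, 26.2 and 16.1 against 16.7, 15.2 and 10.5 CPM in males. Xaf1, a partner of the apoptosis inhibitor XIAP, was at 44.8, 38.7 and 65.7 against 35.5, 31.9 and 31.5 CPM in females and 29.8, 47.9 and 34.05 against 40.2, 28.95 and 31.6 CPM in males. Ifi35 was at 18.4, 21.9 and 22.6 against 14.7, 13.2 and 14.95 CPM in females and 13.9, 18.3 and 15.3 against 18.02, 12.3 and 15.9 CPM in males. In these last 3 the female groups did not overlap, and in Ifi35 the males were almost level (log2 fold change -0.03). Ifi44 ranged from 10.8 to 33.6 CPM in room air and 12.7 to 18.4 CPM after hyperoxia.

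**Figure D3:**
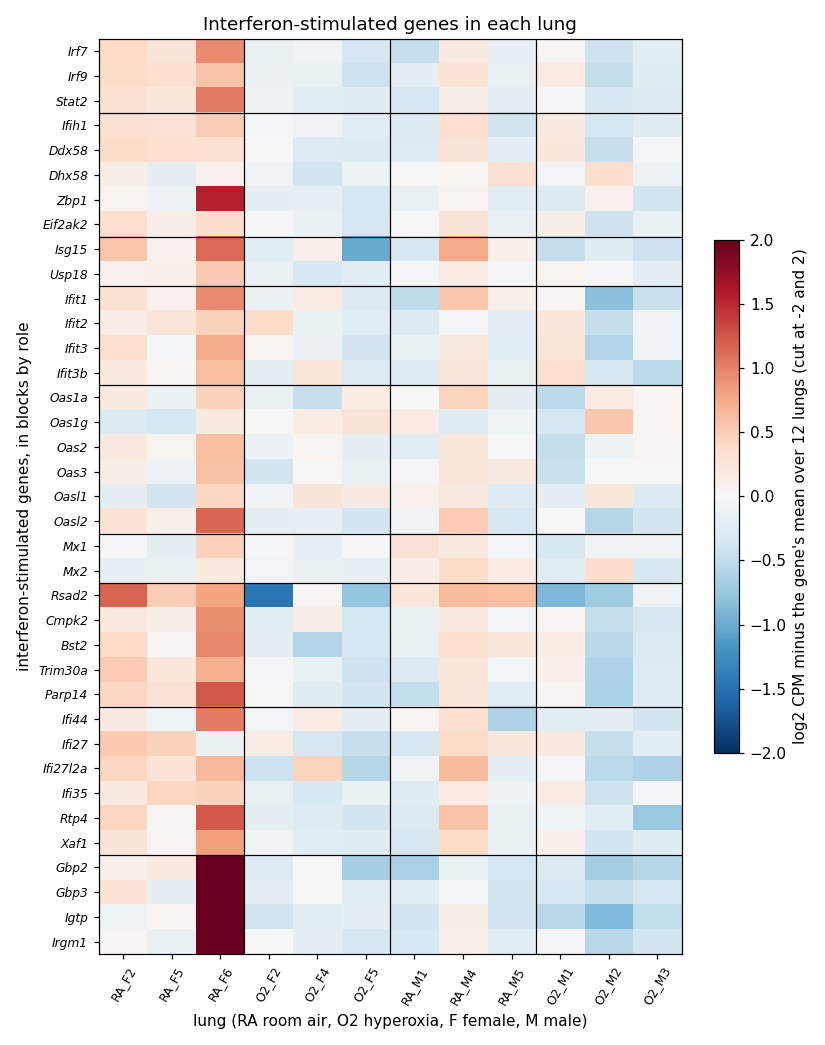
log2 CPM of the 37 genes in each lung minus the gene's mean over the 12 lungs (colour, cut at -2 and 2), in blocks by role from the transcription factors at the top to the interferon-gamma responsive GTPases at the bottom. The column of RA_F6 is red in nearly all rows and darkest in the GTPases, and the row of Rsad2 separates the exposures in both sexes.

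By sex, 20 of the 37 members were lower without overlap in females, against 6.42% of all genes, and 3 in males (Rsad2, Mx1 and Igtp), against 3.89% of all genes. At an unadjusted p under 0.05, 27 members were lower in females (73.0%, all genes 5.28%) and 3 in males (8.11%, all genes 1.8%), namely Isg15, Rsad2 and Ifi27l2a. The median log2 fold change of the members was -0.56 in females, where 39% of all genes stood lower, and -0.17 in males, where 52% did. The male median was -0.019 without RA_M4, with 24 members lower, and -0.24 without RA_M1, and the male count at that p was 1 without RA_M4 (all genes 2.37%) and 7 without RA_M1 (all genes 0.985%). The female count was 14 without O2_F5 (all genes 2.19%). Markers of some other cell types moved with the members in females, and those of others did not. Lung epithelium stood lower there in 6 of 6 genes (median -0.54, 1 at an unadjusted p under 0.05), endothelium in 3 of 3 (-0.45, 0 at that p) and B cells in 3 of 3 (-0.51, all 3 at that p), against medians of 0.10, -0.05 and -0.06 in males. In females the epithelium sum was 10539 to 20568 CPM in room air and 9499 to 10401 CPM after hyperoxia, the endothelium sum 1135 to 1749 and 995 to 1297 CPM, and the B cell sum 89.8 to 138.2 and 72.6 to 98.1 CPM. The T cell sum went the other way without overlap, from 62.8 to 64.9 CPM in room air females to 74.4 to 77.5 CPM after hyperoxia. With overlap, the plasmacytoid dendritic cell sum was 58.6 to 68.1 and 64.6 to 71.8 CPM, and the NK cell sum 12.02 to 18.7 and 15.7 to 18.05 CPM. No marker of these lists was at 0 counts in any lung, and their part in the fold changes of the members was not tested. With edgeR 0 members were called in females, 0 in males and 0 in the interaction of sex and hyperoxia, and 0.00218% of all genes were called lower in females and 0% in males or in the interaction. DESeq2's Wald test called 4 lower in females (Oasl2, Stat2, Rsad2 and Parp14), where it called 0.141% of all genes lower, and 0 in males and 0 in the interaction, where it called 0% of all genes. The interaction, the female minus the male log2 fold change, was below 0 for 33 of the 37 members, where 41.4% of all genes were, with 4 at an unadjusted p under 0.05 (10.8%, all genes 2.4%), a count of 1 without RA_M1 (all genes 1.12%) and of 14 without RA_F5 (all genes 1.11%), so the larger fold changes of females were not shown to differ from those of males. Its most negative values were those of Gbp2 (-2.17 ± 1.15), Igtp (-1.88 ± 1.28) and Gbp3 (-1.04 ± 0.75), and its highest those of Oasl1 (0.23 ± 0.27), Mx2 (0.18 ± 0.24) and Mx1 (0.12 ± 0.24). Without RA_F6 the interaction was below 0 for 26 members (all genes 38.9%), with 1, Ifi35, at an unadjusted p under 0.05 (all genes 6.55%), its median moved from -0.43 to -0.10, and Gbp2, Gbp3 and Igtp were at -0.30, -0.03 and 0.17. In females the share of receptor reads was 0.435% to 0.786% in room air and 0.710% to 0.899% after hyperoxia. With that share as a covariate the median of the members in females was -0.55, and its part in single fold changes was not tested otherwise.

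**Figure D4:**
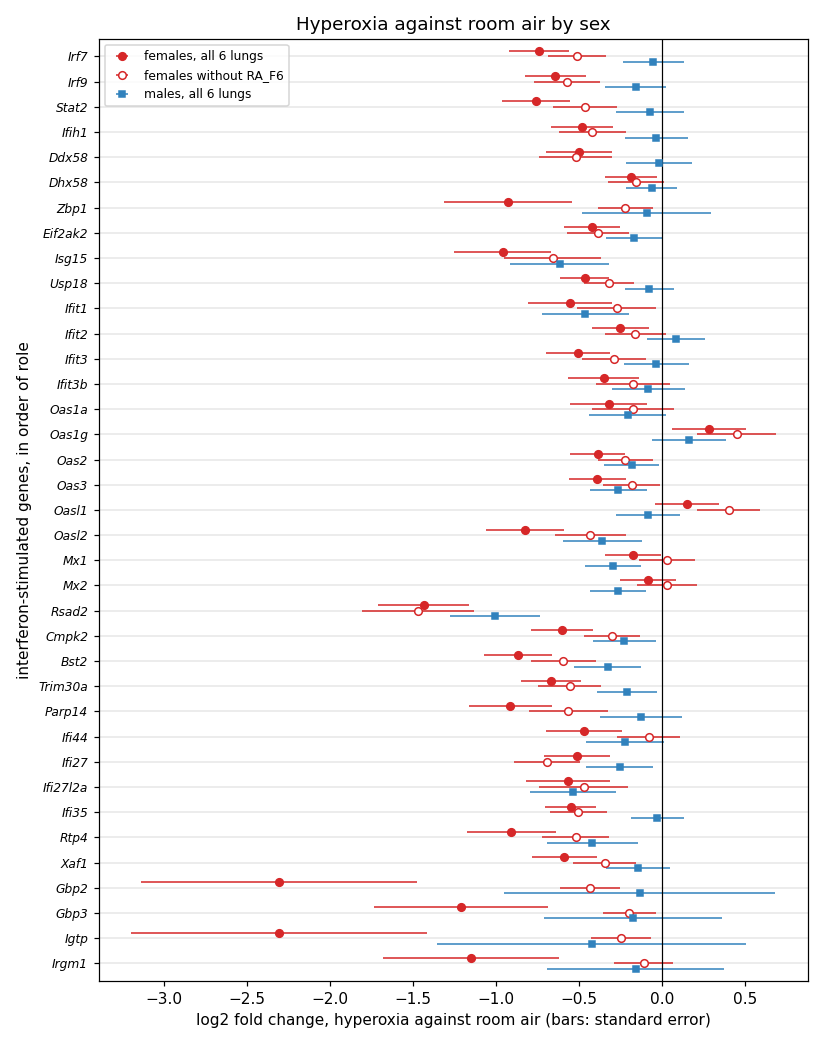
log2 fold change of hyperoxia against room air with its standard error for each of the 37 genes in females (filled circles), in females without RA_F6 (open circles) and in males (squares). The GTPases at the bottom are far from 0 in females only while RA_F6 is in the fit, and Rsad2 is far from 0 in all 3 fits.

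The lung RA_F6, a room air female, stood apart in this class of genes. It was the highest of the 12 lungs for 31 of the 37 members (83.8%), whereas it was the highest for 5.78% of all genes tested. The members in question were led by the interferon-gamma responsive GTPases, which attack the vacuoles of intracellular microbes. Gbp2 (ENSMUSG00000028270, chromosome 3 from 142620602 to 142638008), a guanylate-binding protein, was at 36.97, 39.5 and 347 CPM in room air females and 28.9, 34.8 and 21.7 CPM after hyperoxia, and at 22.2, 31.3 and 27.1 against 28.2, 21.6 and 23.4 CPM in males. RA_F6 was thus 12.1-fold above the mean of the other 11 lungs, which lay within a narrow band. Igtp (ENSMUSG00000078853, chromosome 11 from 58199556 to 58207591), an immunity-related GTPase, was at 14.6, 15.8 and 162 against 11.7, 13.3 and 13.7 CPM in females and 11.95, 16.7 and 11.9 against 10.6, 8.38 and 11.002 CPM in males. Gbp3 was at 109.8 CPM in RA_F6 and between 18.7 and 31.1 CPM in the other 11 lungs. Irgm1, which directs the other immunity-related GTPases, was at 151 CPM there and between 25.5 and 40.2 CPM elsewhere. Rsad2 did not follow, being higher in RA_F2 than in RA_F6, and Oas1g, Dhx58, Ddx58, Ifi27 and Mx2 also had their highest lung elsewhere.

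**Figure D5:**
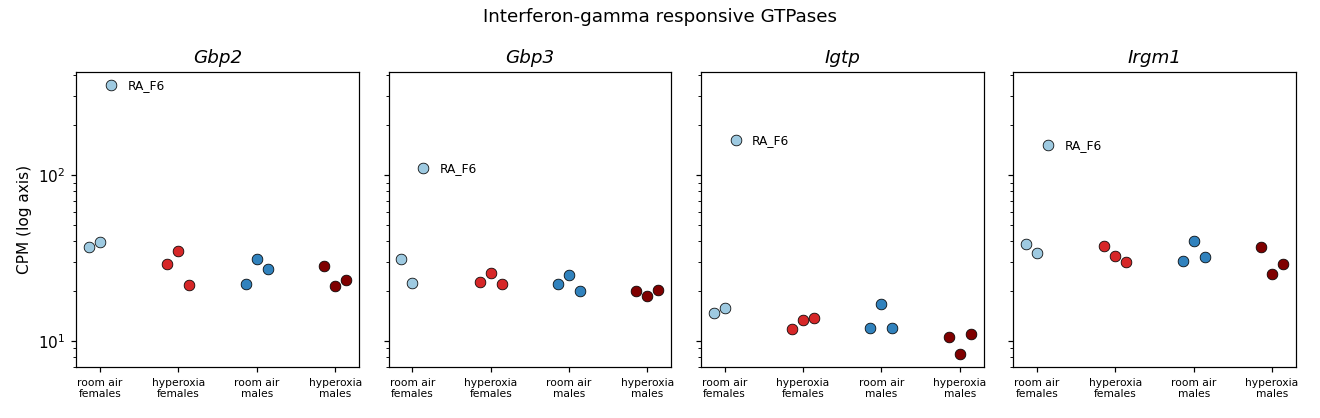
CPM of the 4 interferon-gamma responsive GTPases in each lung on a log axis, 3 lungs per group. RA_F6 is the 1 point far above the rest for each gene, at 347 CPM for Gbp2 and 162 CPM for Igtp.

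The same lung was the highest for 29 of 37 further interferon-inducible genes, listed with earlier results of these data known. Against the mean of the other 11 lungs RA_F6 was 14.5-fold higher for Gbp6, 12.6-fold for Iigp1, 11.9-fold for Tgtp2, 11.6-fold for Gbp4 and 7.24-fold for Gbp5, all GTPases of the same families, and Tgtp2 is near-identical to Tgtp1. The interferon regulatory factor gene Irf1 was at 93.2 CPM in RA_F6 and at most 49.7 CPM elsewhere. Ifng, which encodes interferon gamma and was close to background, had 1.58 CPM (20 counts) in RA_F6 and 0.763 to 2.87 CPM elsewhere, and the chemokine Cxcl9 had 6.72 CPM against 3.63 to 9.30 CPM. The summed markers of T cells (64.9 CPM, other lungs 59.2 to 77.5), NK cells (18.7, other lungs 12.02 to 19.1), plasmacytoid dendritic cells (68.1, other lungs 58.6 to 71.8) and neutrophils (48.3, other lungs 29.1 to 70.3) lay within the range of the other lungs. The monocyte sum was 89.5 CPM in RA_F6 and 50.1 to 80.1 CPM elsewhere. No label sets this lung apart.

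Without RA_F6, 35 of the 37 members still stood lower over both sexes (all genes 40.2%), with a median log2 fold change of -0.26 and 18 at an unadjusted p under 0.05 (all genes 4.31%), and 0 were called in edgeR (all genes 0.0663% lower). In females 33 stood lower (all genes 36.5%), and the median moved from -0.56 to -0.32. At an unadjusted p under 0.05, 17 members were lower and 1 higher in females, against 10.4% and 14.3% of all genes, where the fit with all lungs had 5.28% and 7.32%. The 4 GTPases moved most, from a female median of -1.76 to -0.22. Gbp2 and Igtp had female log2 fold changes of -2.31 ± 0.83 and -2.31 ± 0.89 with this lung, and over both sexes -1.22 ± 0.58 and -1.37 ± 0.64, the lowest besides Rsad2, yet neither was called. At the other end, Oas1g (0.28 ± 0.22), Oasl1 (0.15 ± 0.19) and Mx2 (-0.09 ± 0.17) had the highest female values, and Oas1g (0.16 ± 0.23), Ifit2 and Ddx58 (-0.02 ± 0.20) the highest male values. O2_M2, the shallowest library with the largest receptor share, was the lowest lung for 17 of the 37 members (45.9%), against 14.8% of all genes. Without it the median of the members over both sexes was -0.35.

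Between the sexes, averaged over the exposures, 34 of the 37 members stood higher in females, as did 43.3% of all genes, with a median log2 difference (female minus male) of 0.20. In edgeR 0 were called, 7 were higher at an unadjusted p under 0.05 (18.9%, all genes 4.05%), and DESeq2 called 0. Of all genes edgeR called 1.01% higher and 0.207% lower in females, and DESeq2 called 1.29% higher and 0.665% lower. The largest differences were those of Gbp2 (1.30 ± 0.58), Igtp (1.30 ± 0.64) and Gbp3 (0.76 ± 0.37), and the lowest those of Dhx58 (-0.17 ± 0.11), Mx2 (-0.17 ± 0.12) and Oas1g (-0.03 ± 0.16). Without RA_F6, 28 members stood higher in females (all genes 40.9%), the median was 0.11, and 3 had an unadjusted p under 0.05 (all genes 4.65%). That count was 2 without RA_M1 (all genes 3.71%) and 16 without RA_F5 (all genes 3.89%). Without RA_F6 the differences of Gbp2, Igtp and Gbp3 were 0.37, 0.27 and 0.26.

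Upstream of the members, none of the pathway genes tested was called. Of 31 receptors, kinases, factors, adaptors of induction and inhibitors, 29 stood lower over both sexes (93.5%, all genes 44%), 7 at an unadjusted p under 0.05 (22.6%, all genes 2.52%), and 0 were called in edgeR, with a median of -0.13. Their median was -0.33 in females and 0.04 in males. The 21 ligands were barely measurable: Ifnb1, which encodes interferon beta, averaged 1.29 CPM and Ifng 1.78 CPM, for which the background density would account for 72.5% and 89.8% of the reads, so no statement on the ligands was possible at this depth. The receptor genes were well above background, with Ifngr1 at 127 CPM and Ifngr2 at 47.1 CPM and log2 fold changes of -0.08 and -0.23. Irf1 had a log2 fold change of -0.44 ± 0.16 and was highest in RA_F6. The inhibitor Socs1 was close to level (-0.08). Of the 37 further inducible genes, 35 stood lower, 21 at an unadjusted p under 0.05, and 1 was called, where 0.0393% of all genes were called lower: Isg20, an exonuclease that degrades RNA, was at 49.8, 39.6 and 41.2 CPM in room air females and 29.3, 40.5 and 41.3 CPM in room air males, against 22.7, 27.1 and 24.1 and 26.1, 22.6 and 31.5 CPM after hyperoxia. It fell by 0.64 ± 0.12 on the log2 scale (adjusted p = 0.0211), and lung 1 of the room air males was the only room air lung below any hyperoxia-exposed lung. The call of Isg20 was lost with the red cell sum as a covariate (log2 fold change -0.19, adjusted p = 0.993), with TMM (adjusted p = 0.0676), with background subtracted (0.103), with the replicate block in females (0.0773) and without RA_M4, RA_M5, RA_F2, O2_F2, O2_F4 or O2_F5 (0.0557 to 0.180). With 1 lung left out its log2 fold change ran from -0.72 to -0.59.

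Across the 12 lungs most members varied together. The median Pearson correlation of a member's log2 CPM with the mean of the other members was 0.85, and 0.75 without RA_F6, as a description over lungs that share depth and background differences. Oasl2 (0.97), Xaf1 (0.96) and Rtp4 (0.96) were closest to the common pattern, whereas Dhx58 (0.10) and Oas1g (-0.31) were farthest from it, and Rsad2 had 0.59. Without RA_F6 these were -0.03 for Dhx58, -0.79 for Oas1g and 0.62 for Rsad2, and Oasl1 went from 0.27 to -0.26, Mx1 from 0.60 to 0.13 and Ifi27 from 0.38 to 0.84. Outside the list, among 41126 genes with a mean of at least 1 CPM, the 10 genes most like the mean of the members included Gbp9 (r = 0.97), Parp9, Ifi213, Phf11d, Herc6, Gm1966, Ifi206, Ifi47 and Rnf213 (r = 0.94).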

How the data were processed

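Whole lungs of 12 miR-30a-/- mice were grouped by sex and exposure from the sample titles and characteristics. Trim Galore, STAR and featureCounts were used by the authors, with the genome build mm10 (GRCm38), and the values deposited are raw counts per gene without normalization. Tool versions, the handling of multi-mapping reads and the strand setting are not given in the sources used here. The paper's methods and the sample labels name different stranded library kits. Every column of values was matched to 1 sample, leaving 0 columns unused. ComBat-seq, which the paper applied together with wild-type samples, was not repeated.

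Counts were fitted in R 4.3.3 with edgeR 4.0.16 (robust quasi-likelihood test, upper-quartile normalization, 4 group means, 45828 genes kept by filterByExpr), and p-values were adjusted by Benjamini-Hochberg over all genes tested. A call needed a fold change above 1.5 at an adjusted p under 0.05, as in the paper. Background was the median over 1768 vomeronasal and olfactory receptor genes of reads per kilobase times exon length (GENCODE M21, which matched 55227 of 55487 genes). Replicate pairs were compared by chi-square, and no pair agreed within sampling noise. Alternatives were TMM, RUVr with 1 or 2 factors (written out from its published steps, since the paper gives no number of factors), DESeq2 1.42.0, no filter, at least 10 counts in every lung, subtraction of background, a covariate for the log2 receptor share, the adjusted p alone, only the lungs of 1 sex, the replicate number as a block in females and each lung left out. The red cell covariate was added after values were seen. The fit was tested on simulated data. Depth was 8763033 to 16741694 counts per lung (median 11942546), which limits the precision of low genes.

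All 37 genes are named. Per-lung values are given for the 8 with the highest mean reads per kilobase, for called genes and for genes whose exposure groups did not overlap within a sex, and fold changes with standard errors for called genes and the 3 highest and 3 lowest of each contrast. Values of 1 gene outside the 37 are not reported here. Genes named outside that rule were chosen after their values were seen. The genes and lists were chosen with earlier results of these data known. Errors after ± are SD for levels and standard errors for fold changes.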

Additional observations from a re-analysis of the deposited data

Results flagged for a closer look

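Of 74 sets of 6 lungs (37 genes, each exposure with both sexes together), 9 had a lung farther from its neighbour than Dixon's test allows at the 95% level, where chance flags about 1 set in 20. In 8 of them the lung was RA_F6, the highest of the room air lungs: Gbp2 at 347 CPM, Igtp at 162 CPM, Irgm1 at 151 CPM, Stat2 at 123 CPM, Gbp3 at 109.8 CPM, Zbp1 at 48.0 CPM, Cmpk2 at 43.0 CPM and Usp18 at 27.4 CPM. The ninth was Mx2 in O2_M2, at 17.7 CPM the highest of the hyperoxia-exposed lungs. These genes vary together across lungs, so the 8 values of RA_F6 are not independent of each other.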

How the results depend on the processing

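Over both sexes the number of members called was 1 in the fit described above (all genes 0.0393% lower). With 1 lung left out it was 0 to 1 (all genes 0.00641% to 0.0767% lower). It was 0 with RUVr with 1 factor (all genes 0.0851% lower), with at least 10 counts in every lung (0.0473%) and with background subtracted (0.0237%). It was also 0 adjusting for the receptor share (0.0349%) and with the red cell marker sum as a covariate (0%). With RUVr with 2 factors the 1 call was Isg15 and not Rsad2, where 0.148% of all genes were called higher and 0.0916% lower. In females it was 0, and 2 with RUVr with 1 factor (Irf9 and Rsad2, both lower, where 3.36% of all genes were called higher and 0.794% lower), 3 with RUVr with 2 factors (Isg15, Irf7 and Irf9, all lower, where 3.40% were called higher and 0.803% lower), 4 with DESeq2, 1 with no filter (Rsad2, all genes 0.0152% lower), 1 adjusting for the receptor share (Oas3, all genes 0.0371%), 2 in the 6 female lungs alone (Irf7 and Bst2, all genes 0.160%) and 0 to 1 with 1 lung left out. With the replicate block in females 1 member was called over both sexes and 1 in females, Rsad2 each time, where 0.0393% and 0.00218% of all genes were called lower. Numbers shared by lungs of both exposures were not used as pairs in the main fit. The deviations of same-numbered lungs correlated at 0.079 and -0.202 for females 2 and 5 and at -0.349 for males 1. So few pairs cannot show whether such lungs share a litter. The 67 alternative values of the members' median log2 fold change moved by less than 0.24, the SD of the members' median level over lungs, a limit wider than the male median of -0.17 itself, which ran from -0.24 to -0.019 with 1 lung left out. The exposure fold changes of Rsad2 stayed below 0 in every alternative, and its call over both sexes was kept in 11 of 22. With the red cell sum as a covariate they were within their standard errors of 0. The values there were -0.055 ± 0.277 over both sexes, -0.044 ± 0.345 in females and -0.067 ± 0.277 in males. Signs turned as follows among the genes with the highest and lowest fold changes. The log2 fold change of Oasl1 over both sexes was -0.0078 with DESeq2, -0.074 with the receptor share and -0.033 with the red cell sum as a covariate, and -0.046 to 0.16 with 1 lung left out. Adjusting for the receptor share, the female values of Oasl1 and Oas1g were -0.12 and -0.12, the interactions of Mx1, Mx2 and Oasl1 were -0.15, -0.0092 and -0.10, and the sex difference of Oas1g was 0.14 (0.021 with DESeq2). The replicate block gave 0.045 for Mx2 in females and 0.16 for the interaction of Igtp. In males Ddx58 was 0.0091 with DESeq2 and Ifit2 was -0.13 with the red cell sum. With 1 lung left out the values ran from -0.15 to 0.027 for Mx2 in females, from -0.0081 to 0.40 for Oasl1 in females, from -0.18 to 0.17 for Ddx58 in males, from -0.084 to 0.25 for Ifit2 in males, from -0.071 to 0.36 for Oas1g in males, from -2.36 to 0.17 for the interaction of Igtp, from -0.017 to 0.32 for the interaction of Mx1 and from -0.12 to 0.096 for the sex difference of Oas1g. Outside those genes, the interaction of Irgm1 went from -0.99 to 0.043 without RA_F6 and that of Rsad2 from -0.43 to 0.022 with the red cell sum. The cause of these changes was not tested, beyond the fewer lungs of each such fit.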
